A study of Mus musculus with 48 samples.

Results

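The members described here are the 12 input libraries, of 48 libraries in the series, that accompanied a titration of synthetic NAD-capped RNA in aged mouse liver. They fall into 2 sets of 6: the libraries made with 0% or 5% NAD-RNA spike-in (the 0% and 5% set) and those made with 1% or 10% (the 1% and 10% set). The grouping was chosen by measured values of these same libraries, so the difference between the sets is given as a description and carries no test. The genes described were selected on that difference: of 12214 endogenous genes that averaged 10 counts or more over the 12 libraries, 113 (0.925%) differed by at least 2-fold between the set means with all 6 libraries of one set above all 6 of the other, and these are called the parting genes. Without the 2-fold condition, 1397 genes (11.4%) did not overlap between the sets.

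Every liver came from a C57BL/6 mouse of 18 months, with no substrain and no genetic or drug treatment named in the labels, and every library was made from polyA RNA. The 4 mixtures differed in the share of a polyadenylated spike-in RNA that carried an NAD cap (0%, 1%, 5% or 10%), with the remainder capped by m7G, and each had 3 libraries numbered 1 to 3. Input RNA is total RNA that went through the labelling reaction but was set aside before NAD-RNA was captured and eluted, so it reads the ordinary liver transcriptome. The age and the 3 biological replicates come from the study's methods. The other inputs used for comparison are from C57BL/6 livers too: 4 young (2 months), 4 aged (18 months) and 4 of a test of elution with and without the enzyme NudC (12 months). The summed counts of endogenous genes ranged from 6668692 to 9073881 per input library. Same-numbered libraries of a set were summed as 1 liver, so each set counts as n = 3, and errors of set differences are standard errors over those 3 against 3 taken as independent. Counts carry counting error as well, and a library at 0 counts allows up to 3 counts, or 0.331 to 0.45 CPM, where CPM is the level of a gene relative to the 1000000 counts to which each library was scaled.

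Nnt encodes nicotinamide nucleotide transhydrogenase, a proton-driven enzyme of the inner mitochondrial membrane that passes reducing equivalents from NADH to NADP and so feeds the NADPH used for peroxide removal. C57BL/6J mice are known for a deletion within this gene that C57BL/6N mice lack. A gene level from RNA sequencing is also a product of the gene model against which reads are counted: a read pair that lies in exons of more than 1 gene is left out by the counting program's default.

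The libraries carried liver transcripts, and their deviations from the mixture means followed the replicate numbers across both sets. The summed level of 7 of 8 hepatocyte markers (albumin, apolipoproteins and the like) was 86906 to 93617 CPM in the 0% and 5% set and 75072 to 83296 in the 1% and 10% set. The remaining symbol, Tf, was not found, since transferrin is listed as Trf. Over the 8761 genes with at least 50 counts on average, the deviation of each library from its mixture mean was compared between libraries, across genes. Same-numbered libraries of a set correlated at r = 0.50 to 0.78 (6 pairs) and same-numbered libraries of different sets at r = 0.29 to 0.43 (12 pairs). Pairs with different numbers lay at -0.57 to 0.10 within a set (12 pairs) and at -0.32 to 0.04 between sets (24 pairs). In each of the 12 libraries, the library of the other set that it resembled most had its own number. Whether the sets hold 6 unrelated livers is not known, and they are called sets of libraries below. Whether same-numbered libraries came from 1 animal was not tested. With the numbers paired across the sets, an alternative chosen after seeing the data, the standard errors of the named genes' set differences were 0.01 to 0.48 on the log2 scale, beside 0.01 to 0.47 unpaired, and were larger for 14 genes and smaller for 15. That of Nnt was 0.21 paired and 0.18 unpaired.

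**Figure D1:**
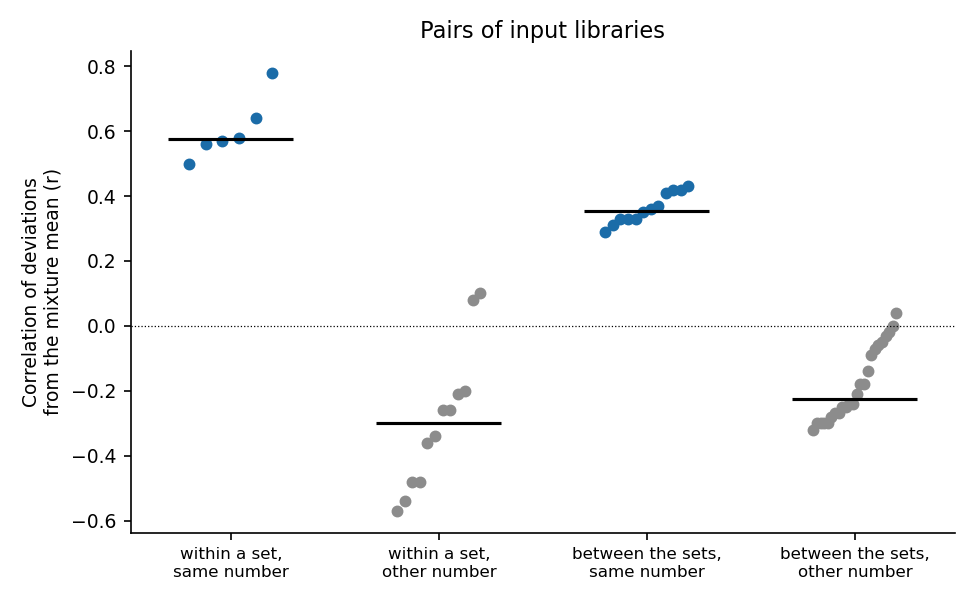
Correlation across 8761 genes between pairs of input libraries (y axis, Pearson's r of the deviations from the mixture mean, no unit), by whether the pair lies within or between the sets and shares a replicate number. Each point is a pair of libraries and each line a median. Same-numbered pairs lie at 0.50 to 0.78 within a set and at 0.29 to 0.43 between the sets, above all other pairs. A part of this gap is built in, since the deviations of a mixture cancel out for each gene.

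Nnt was nearly absent from 1 set and plain in the other. It had 3, 5 and 12 counts (lowest, median and highest of 6 libraries) in the 0% and 5% set. It had 752, 996.5 and 1057 counts in the 1% and 10% set. No library of one set came near the other set's range, and the difference was -7.06 ± 0.18 on the log2 scale (0% and 5% minus 1% and 10%, SE, n = 3 and 3). Here and below such differences are of CPM with a prior count of 2, which understates the change of a gene near 0. The ratio of pooled counts, each scaled by its set's pooled library size, was 148, with a 95% exact interval of 109 to 207.5 for counting error only. Nnt lies at chr13:119335448-119408997 on the minus strand (GRCm38, GENCODE M21) and spans 7037 exonic bases. A second annotated gene of the same name overlaps 3339 of these bases, or 47.5%. That second entry is not among the genes of this count table, but the count tables of the other livers of the series list it. There it had 0 counts in all 8 inputs of young and aged liver and in all 4 NudC-experiment inputs, while the first entry had 1 to 15 counts in the former and 7 to 14 in the latter.

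The genes around Nnt showed no such gap. Within 1 Mb on either side, 8 other genes passed the count minimum, and none of them parted the sets. Paip1, which encodes a partner of the poly(A)-binding protein, was the only one without overlap, with 251 to 323 counts in the 0% and 5% set against 332 to 453 in the 1% and 10% set, a difference of -0.49. Hmgcs1, a cholesterol synthesis enzyme, had 1205 to 1844 counts against 1396 to 2021, and the ranges overlapped. Of 5 tested genes known to differ between C57BL/6 substrains or colonies, Nnt alone parted the sets. Of 31 tested genes of NAD and NADP metabolism and of 14 for mitochondrial NADPH and peroxide removal, Nnt again was the sole parting gene, and the medians of these lists were -0.10 and -0.20, beside 0.01 over all tested genes.

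The parting genes with the largest excess in the 1% and 10% set had varied known roles. In this direction 47 genes (0.385% of those tested) parted the sets. Lrrc24, a leucine-rich repeat membrane protein, had 0, 0.5 and 2 counts in the 0% and 5% set and 363, 422 and 481 in the 1% and 10% set, a difference of -8.13 ± 0.38. Brms1, a component of SIN3 histone deacetylase complexes, had a single count in 1 of the 6 libraries of the 0% and 5% set against 197, 223.5 and 243 counts. B4gat1, a glycosyltransferase that acts on dystroglycan and lies beside Brms1 on chromosome 19, had 0, 0 and 2 against 145, 164.5 and 212. All 3 genes were thus near 0 in every library of one set and plain in every library of the other.

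Sept2, a septin that forms cytoskeletal filaments, had 2, 6.5 and 10 counts in the 0% and 5% set against 484, 589 and 634. Myl12b, a regulatory light chain of non-muscle myosin, had 6, 15.5 and 19 against 674, 784.5 and 871, a difference of -5.77 ± 0.19. Chkb, the choline kinase that starts phosphatidylcholine synthesis, had 0, 2.5 and 5 against 237, 257.5 and 310. Chtf8, a subunit of a clamp loader used in DNA replication, differed by -6.33 ± 0.47 and Commd5, a COMM-domain protein, by -5.68 ± 0.35. Fam220a differed by -6.47 ± 0.20. The lysosomal ribonucleases Rnaset2a and Rnaset2b differed by -7.24 ± 0.14 and -6.15 ± 0.41; they are near-identical copies, so their split of reads is uncertain. Each of these genes had at most 19 counts in any library where it was low. That the sets did not overlap follows from the way the genes were selected. Genes that averaged under 10 counts in the lower set met the count minimum only through the other set.

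In the opposite direction 66 genes (0.54%) parted the sets, with transferrin the most abundant. Trf encodes transferrin, the iron carrier of plasma that hepatocytes secrete. Trf had 91363, 111916.5 and 124946 counts in the 0% and 5% set. It had 3048, 3807 and 4369 in the 1% and 10% set, or 491.5 CPM on average against 13822, a difference of 4.81 ± 0.10. Whether its RNA level differed, or only the reads counted for it, was not tested. The other hepatocyte markers did not part the sets, and their median difference was 0.10. Trf lies at chr9:103204001-103230444 on the minus strand, and 2108 of its 3320 exonic bases overlap Gm20425, an annotated protein-coding gene that is not in the count table.

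The processed pseudogene Gm15459 had 1243, 1488 and 1608 counts in the 0% and 5% set and 0 in every library of the 1% and 10% set, which is at least 462-fold higher against a floor of 3 counts per library. The pseudogene Gm2058 likewise had 44, 56 and 64 counts against 0 in every library, at least 17.6-fold higher. Reads of a processed pseudogene can also come from its parent gene, so both levels are uncertain. Pnp, the purine nucleoside phosphorylase of nucleotide salvage, had 234, 305.5 and 359 counts against 0, 1 and 4, a difference of 7.02 ± 0.31. B630019A10Rik, an antisense transcript, had 464, 567.5 and 634 against 2, 3.5 and 4. Since the counting options in the study's methods include none for strand, reads of a gene on the other strand could be counted for it. Exons of listed genes overlap 18.8% of its exonic bases.

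Several of these genes act in the nucleus. Med10, a Mediator subunit, had 90, 102 and 115 counts against 0, 0 and 2. Atrip, the partner of the DNA damage kinase ATR, had 69, 89.5 and 109 against 0, 0.5 and 3. Wdr74, a ribosome assembly factor, had 149, 201 and 239 against 3, 3.5 and 6. The zinc finger gene Zfp871 differed by 3.58 ± 0.20. In the cytoplasm and at membranes, Ptar1, a prenyltransferase alpha subunit repeat protein, differed by 3.08 ± 0.45, the aminopeptidase Lnpep by 2.83 ± 0.12 and Mob3a, of the MOB kinase activator family, by 2.51 ± 0.25. As with the genes above, all 6 libraries of the 0% and 5% set lay above all 6 of the other set, which the selection required.

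**Figure D2:**
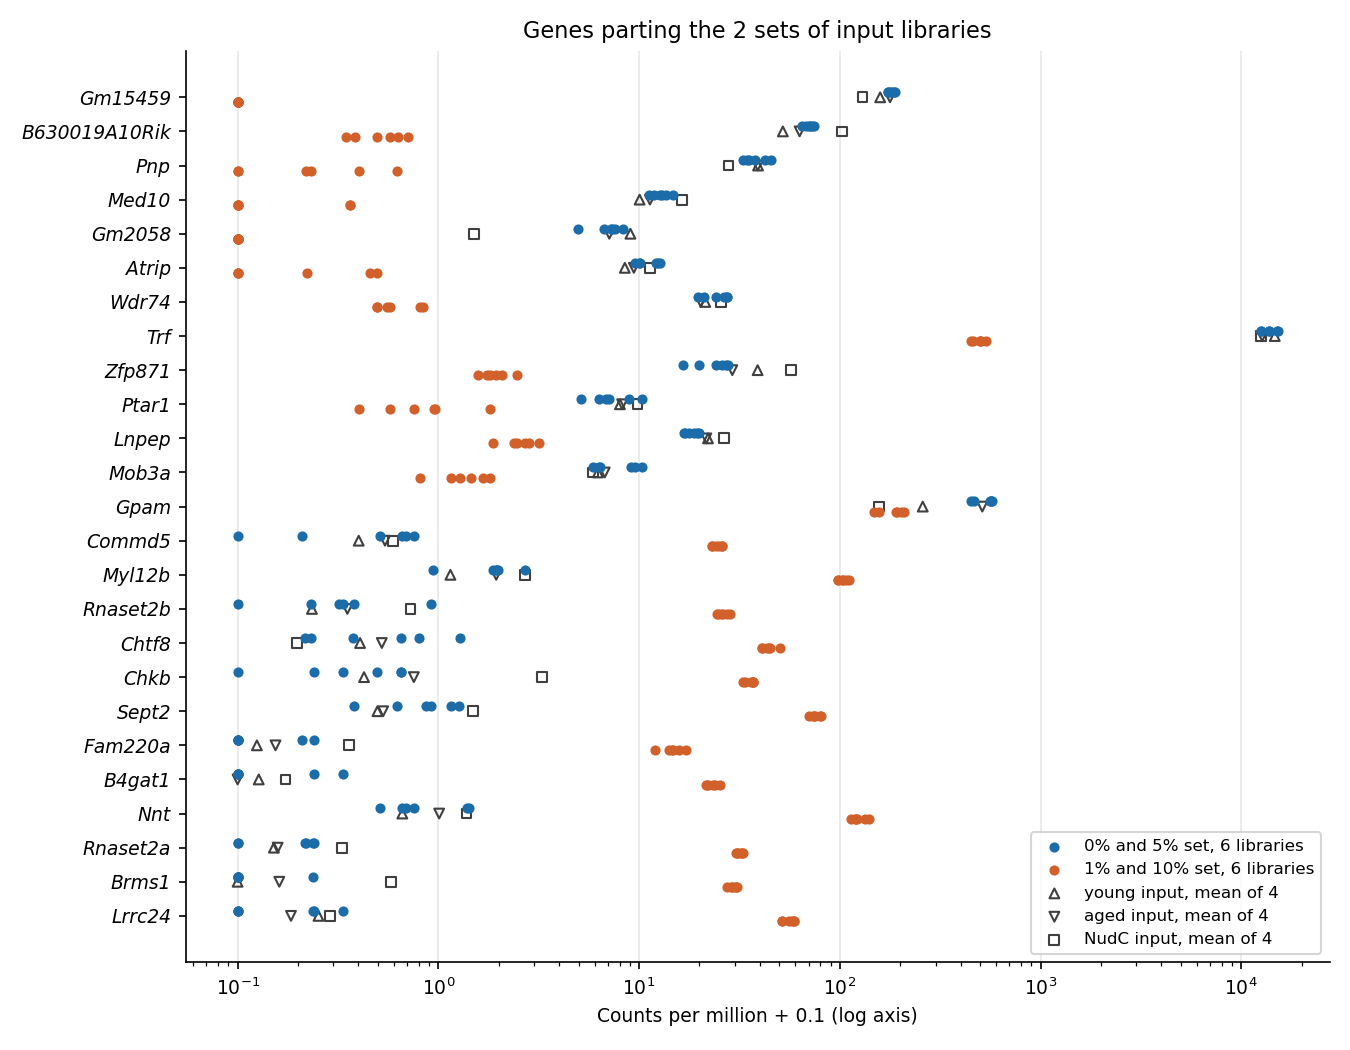
Level of the 25 parting genes named for the largest differences or as list genes (x axis, CPM + 0.1, log axis; y axis, genes ordered by difference). Filled points are single input libraries, 6 per set, and open symbols are means of 4 inputs of young, aged or NudC-experiment liver; by the midpoint of the set means, the open symbols lie on the side of the 0% and 5% set except for Gpam in young and NudC-experiment liver.

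Of 349 tested genes on 25 lists of liver pathways and marker groups, 2 parted the sets, Nnt and Gpam (0.573%, beside 0.925% of all tested genes). Gpam encodes the mitochondrial acyltransferase that starts triglyceride synthesis. It had 3298, 4151 and 5153 counts in the 0% and 5% set against 973, 1437.5 and 1600, a difference of 1.54 ± 0.16. None of the other 18 tested fatty acid synthesis genes parted the sets, and that list's median difference was 0.07. No gene of the clock, cholesterol synthesis, PPAR alpha, gluconeogenesis, acute phase, interferon, bile acid, major urinary protein or mitochondrial genome lists parted the sets. The list medians ran from -0.27 for the mitochondrial genome to 0.29 for the extracellular matrix. On the lists 32 of 349 genes (9.17%) did not overlap between the sets, beside 11.4% of all tested genes. The lists were not alike in this. On the mitochondrial genome list 4 of 11 tested genes did not overlap, all higher in the 1% and 10% set. For mitochondrial NADPH and peroxide removal, 5 of 14 did so in that direction, Nnt among them, beside 718 such genes among all 12214 tested. The acute phase list had 4 higher in the 0% and 5% set and 2 higher in the other.

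The threshold itself separated genes of nearly equal difference. Just inside it were the chromatin remodeller Chd1 and the unprocessed pseudogene Gm28438, both at -1.0, with 62 to 98 against 145 to 175 counts for Chd1 and 133 to 308 against 262 to 420 for Gm28438. The latter overlapped in raw counts but not once scaled. Just outside were the golgin Golga4, at 1.00, with 301 to 360 against 130 to 207 counts, and Thoc1, of the THO mRNA export complex, at -1.0, with 21 to 43 against 49 to 76. At 4-fold or more, 46 genes parted the sets, 21 of them higher in the 0% and 5% set. Of the 113 parting genes, 42 had a mean under 10 counts in the lower set and entered only through the other set, so they had to differ.

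A part of the parting genes had exons overlapped by annotated genes that the count table does not list. Of the 55450 genes of GENCODE M21, 2469 are absent from this count table; 2173 of the absent genes are listed in the table of young and aged liver, and the rest are not. Among the 47 genes higher in the 1% and 10% set, 30 (63.8%) had exons overlapped by an absent gene that the age table lists, and 0 by an absent gene listed in neither table. Among the 66 genes higher in the 0% and 5% set, 17 (25.8%) were overlapped by a gene in neither table and 3 (4.55%) by one that the age table lists. Most genes in this direction, 48 of 66, and 17 of the 47 had no overlap by an absent gene. Of the 12101 tested genes that did not part the sets, 1.11% were overlapped by an absent gene that the age table lists and 0.802% by one in neither table. The overlapping entry for Brms1 and B4gat1 was the single gene AC124502.3, which covers 79.0% and 85.3% of their exonic bases. For Sept2, Chtf8, Fam220a and Myl12b, as for Nnt, it was a second entry of the same name. In the 0% and 5% direction, Gm26825 covers 95.8% of Gm15459, Gm26819 covers 92.8% of Med10 and Gm20425 covers 63.5% of Trf.

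Counts of the overlapping entry were looked up for the 12 genes named for the largest excess in the 1% and 10% set. In the 8 inputs of young and aged liver, the entries over Nnt, Brms1, B4gat1, Rnaset2a, Rnaset2b, Fam220a, Sept2, Chkb, Chtf8 and Commd5 had 0 counts in every library, and the second Myl12b entry had 0 to 2. Lrrc24 differed from these: just 2.18% of its exonic bases are overlapped by an absent gene, C030006K11Rik, which had 314 to 678 counts per library while Lrrc24 had 0 to 4. A further 46.8% of Lrrc24 is overlapped by genes that this count table does list.

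Genes can also be taken by overlap first, though the groups then still hold parting genes and genes that passed the count minimum through one set. Of 61 tested genes with at least 10% of their exonic bases under an absent gene listed in the age table, 52 were lower in the 0% and 5% set, with a median difference of -0.75 on the log2 scale. Of 57 with such overlap by a gene in neither table, 50 were higher in that set, with a median of 0.64. The 61 include 28 parting genes and 16 genes with a mean under 10 counts in the lower set, and the 57 include 16 and 8. Of the 33 that did not part, 25 were below 0 (median -0.26), and of the 41, 34 were above 0 (median 0.39), beside a median of 0.01 over all tested genes. Among the parting genes without overlap by an absent gene were Pnp, Atrip, B630019A10Rik, Wdr74, Zfp871, Ptar1, Lnpep and Gpam. Of these, Pnp, Atrip and B630019A10Rik overlap genes that the table does list, over 21.9%, 16.0% and 18.8% of their exonic bases, and the others overlap none. Whether the sets were counted against different annotations was not tested.

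**Figure D3:**
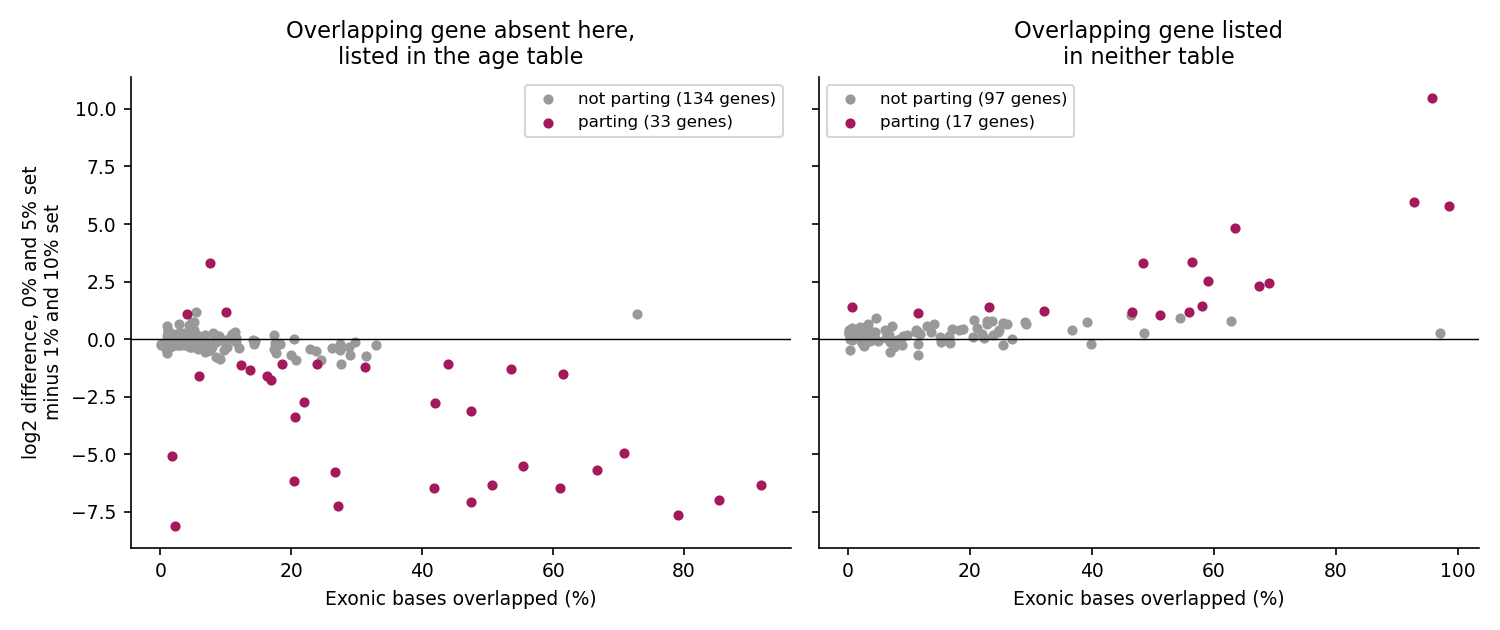
Set difference (y axis, log2, 0% and 5% set minus 1% and 10% set) of tested genes against the percent of their exonic bases that overlap a gene absent from this table (x axis). Each point is a gene, with parting genes coloured; differences lie mostly below 0 where the overlapping gene is listed in the age table (left) and mostly above 0 where it is listed in neither table (right).

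The parting genes were also unevenly placed. Chromosomes 15 to 19, a block not set in advance, held 60 of them, 2.74% of the 2190 genes tested there. The remaining chromosomes held 53, or 0.529% of 10024. Among tested genes without overlap by an absent gene, 0.873% to 2.64% parted on each of chromosomes 15 to 19. On each other chromosome at most 0.756% did. Chromosome 18 had the highest share, 3.74%, and chromosome 16 followed with 3.12%. On chromosome 11, by contrast, 1 of 994 tested genes parted the sets (0.101%). The median exonic length was 5690 bases for the genes higher in the 0% and 5% set, 3061 for those higher in the 1% and 10% set and 4183 for genes that did not part.

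**Figure D4:**
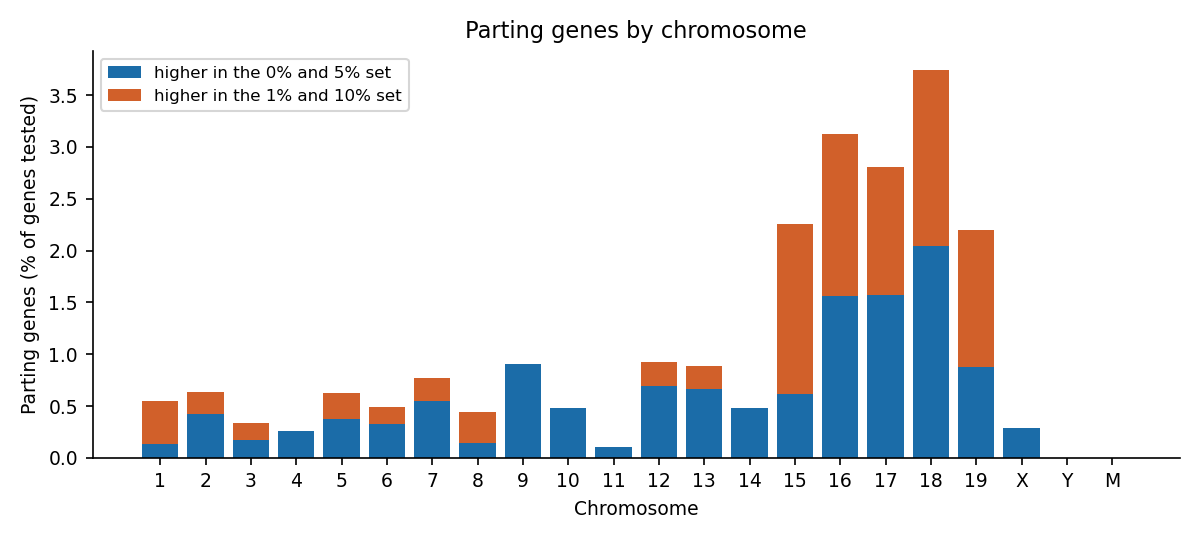
Parting genes as a percent of the genes tested on each chromosome (y axis) by chromosome (x axis), stacked by the set in which they were higher. Chromosomes 15 to 19 hold 2.20% to 3.74% each and every other chromosome under 1%.

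The enrichment libraries, which were made from the captured RNA of the same reactions and were not used to choose the genes, showed the same difference. Of the 113 parting genes, 109 differed in the same direction there, 80 of them by at least 2-fold, and 60 met both conditions of no overlap and 2-fold; over all 12214 genes 89 (0.729%) met both. The 4 in the opposite direction were Lamb1, Ston1, Syne1 and Gm18860. No share of all tested genes with the same direction is given. Nnt differed by -6.37, Trf by 4.54, Gm15459 by 9.92 and Gpam by 1.49. Enrichment and input libraries of a number shared their RNA, so these are further libraries and not further livers.

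At most of the parting genes, which were selected on the set difference, other livers of the series lay on the side of the 0% and 5% set. By the midpoint of the set means, the mean level of 4 aged inputs (18 months) was on that side for 110 of the 113 parting genes, that of 4 young inputs (2 months) for 100, and that of 4 inputs of the NudC experiment (12 months) for 97. No such share over all tested genes is given, so these counts describe the parting genes only. These tables were each scaled on their own. The 4 NudC inputs are numbers 1 and 2, with and without the enzyme, and may not be 4 livers. Gm15459 stood there at 174.6 and 166.1 CPM in number 1 and at 88.88 and 89.27 in number 2. Whether same-numbered NudC inputs share RNA was not tested. Nnt stood at 0.562 ± 0.313 CPM in young and 0.909 ± 0.224 in aged liver (SD, n = 4 each) and at 1.02 to 1.74 in the NudC inputs, beside 0.805 in the 0% and 5% set and 125 in the other. Trf stood at 14686 ± 1449 in young and 12716 ± 1064 in aged liver. Gm15459, at 0 in the 1% and 10% set, stood at 159 ± 35.3 and 178 ± 7.51. The 3 genes on which the aged livers lay nearer the 1% and 10% set were Cwc22, Uaca and Gm37824, none of them named above.

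Age was tested in those other livers with edgeR's quasi-likelihood test. Of the 96 parting genes with enough counts there, 28 (29.2%) passed at an adjusted p under 0.05, beside 35.2% of all 12798 genes tested; 18 were higher in aged liver (18.3% of all genes were) and 10 lower (17.0%). Gpam rose with age, from 259 ± 39.7 to 512.5 ± 51.4 CPM, a log2 difference of 1.00 ± 0.11 with an edgeR adjusted p of 1.12e-05. Gm28438 was higher in aged liver by 3.46 ± 0.31 (edgeR adjusted p = 1.5e-06) and Zfp871 fell by 0.41 ± 0.15 (edgeR adjusted p = 0.0482). As with the pseudogenes above, reads of Gm28438 can come from another copy of its sequence, so its level is uncertain. Syne1 and Gm37824 were also higher in aged liver, by 0.91 ± 0.18 and 1.70 ± 0.43 (edgeR adjusted p = 0.00125 and 0.00762). The other genes named for their set difference did not pass, with edgeR adjusted p from 0.0591 for B630019A10Rik to 0.979 for Pnp, or were below the count minimum, as Nnt was. With library size as the only scaling, the parting genes split 27 higher to 5 lower and all called genes 3900 to 1196, and the median over all genes moved from 0.013 to 0.185.

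The NAD-RNA share of the spike-in left the endogenous genes of a set with 0 calls in edgeR. For 5% against 0% no gene passed (0.0% called, 286 with an unadjusted p under 0.05), and for 10% against 1% none did (0.0%, 207 unadjusted); DESeq2 also called 0 in each. Nnt differed by -1.06 ± 0.34 between 5% and 0% and by 0.13 ± 0.08 between 10% and 1%, with an edgeR adjusted p of 1.0 in both. With the replicate number as a block, which the correlations above permit, 14 genes passed in the 0% and 5% set and 1 in the 1% and 10% set, and none was a parting gene. That single gene was Glrx5, a glutaredoxin of mitochondrial iron-sulfur cluster assembly, which also led the other 14. It differed by 0.37 ± 0.05 for 5% against 0% and by -0.22 ± 0.04 for 10% against 1%, in opposite directions.

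Within each set the 3 numbers differed in many genes, of which a part was shared between the sets. In edgeR's F test over the numbers, 2147 genes (17.6%) passed in the 0% and 5% set and 1549 (12.7%) in the 1% and 10% set; 1004 passed in both, which is 46.8% of the former and 64.8% of the latter. These p-values rest on the spread between a pair of libraries per number, which may share RNA, so they describe these livers and not a population. The same number was highest in both sets for 784 of the 1004 (78.1%), beside 46.1% of all tested genes. DESeq2's likelihood ratio test called 816 and 642. Of the 113 parting genes, 15 and 4 passed.

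Number 2 stood out by genes known to be higher in male liver. Mup7, a major urinary protein that male mouse liver secretes, had 21.1 and 19.5 CPM in number 1 of the 0% and 5% mixtures, 277.5 and 282 in number 2 and 34.0 and 33.8 in number 3. In the 1% and 10% set it had 18.5 and 17.8, then 331 and 332, then 47.0 and 45.0. Number 2 was several times above the others in both sets. All 12 tested genes of the list known to be higher in male liver passed in both sets, and all 12 were highest in number 2 in both. So were 13 of 16 tested major urinary protein genes. Of 12 listed genes known to be higher in female liver, only 4 reached the count minimum. Of these 4, 3 passed in both sets and 0 were highest in number 2 in both. The study's methods name no sex. On the Y chromosome 4 genes averaged 10 counts or more over the 12 libraries. The sex chromosome list held Xist and the Y genes Ddx3y, Eif2s3y, Uty and Kdm5d, and 4 of these 5 reached the count minimum. Of the 4, 1 passed in the 0% and 5% set and 2 in the 1% and 10% set. Only Eif2s3y passed in both, and it was highest in number 3. Whether the numbers differ in sex was not tested. Of all 1004 genes called in both sets, 42.3% were highest in number 2 in both. Serpina1e, a protease inhibitor of the alpha-1-antitrypsin family, had 104.5 to 111 CPM in numbers 1 and 3 and 303 to 363 in number 2. Mup3 and Cyp26a1, the retinoic acid hydroxylase, were also highest in number 2, with 2778 to 3838 and 402 to 473 CPM.

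Interferon and metabolic genes also followed the numbers. Of 9 interferon response genes called in both sets, 8 were highest in number 2 in both. Of 14 acute phase genes so called, 9 were highest in number 1 in both, and of 16 fatty acid synthesis genes, 9 were highest in number 3, beside 18.5% and 17.2% of the 1004 genes called in both sets. Pck1, a gluconeogenic enzyme, had 346 to 387 CPM in number 1, 868.5 to 927 in number 2 and 991 to 1071 in number 3 over both sets. The haemoglobin gene Hbb-bs, chosen after its values were seen, had 130 to 173 in number 1 and 37.5 to 55.2 in numbers 2 and 3. Of 12 tested cell cycle genes 0 passed in both sets by edgeR, beside 8.22% of all tested genes.

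Transcripts of 2 other tissues came with single numbers. The summed level of 5 pancreas markers was 333 and 334 CPM in number 2 of the 0% and 5% mixtures and 0 to 1.58 in the other 10 input libraries, including number 2 of the other set. It was 383 and 405 in the enrichment libraries of the same number and set and at most 1.59 in all others. Among the genes with the largest F were the pancreatic proteases Ctrb1 and Cela2a, at 123 to 126 and 106.5 to 108 CPM in those 2 input libraries and at most 1.05 in the rest. The summed level of 4 skeletal muscle genes (Acta1, Mb, Ckm and Atp2a1, chosen after their values were seen) was 45.9 and 47.3 in number 3 of the 0% and 5% set, 183 and 193 in number 3 of the other set and at most 0.702 elsewhere. No pancreas marker parted the sets. The part of these tissues in the liver gene differences was not tested.

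**Figure D5:**
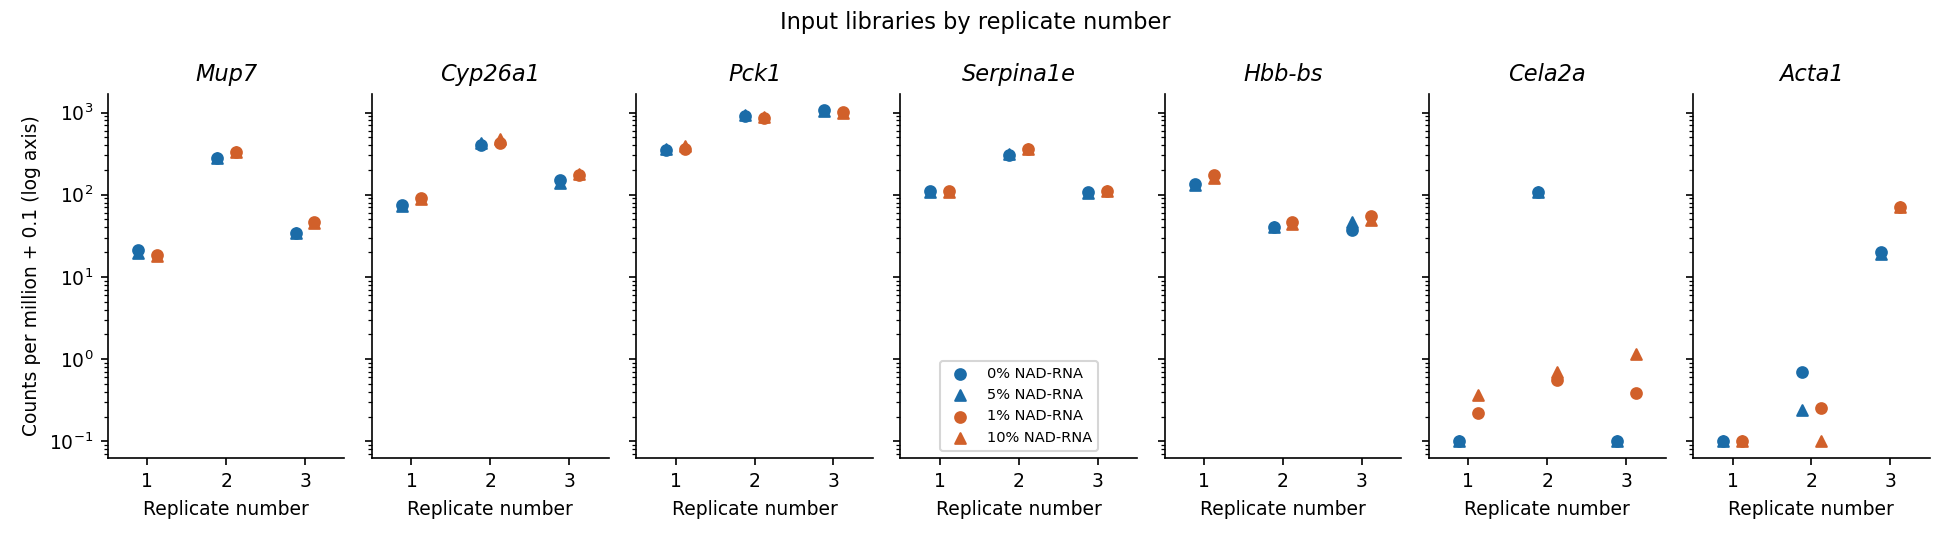
Level of 7 genes (y axis, CPM + 0.1, log axis) by replicate number (x axis) in the 12 input libraries, with colour for the set and shape for the mixture. Mup7, Cyp26a1, Pck1, Serpina1e and Hbb-bs follow the number alike in both sets, Cela2a is high in number 2 of the 0% and 5% set alone, and Acta1 is high in number 3 of both sets.

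The number pattern was not identical in the sets. A test of the number-by-set terms, added after the data were seen, passed for 433 genes (3.55%) in edgeR, and for 194 of the 1004 genes called in both sets (19.3%). Without number 1 it passed for 41 genes and without number 3 for 159. Cyp26a1 and Pck1 did not pass (edgeR adjusted p = 0.311 and 0.0636), while Mup7 did (edgeR adjusted p = 0.0121), with the same order of numbers in both sets.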

How the data were processed

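The deposited tables hold raw counts of read pairs per gene. The authors trimmed reads with Trim Galore, aligned them to GRCm38 with STAR and counted exons with featureCounts, against GENCODE M23 by the study's methods; STAR, featureCounts and DESeq2 are named in the submitters' processing notes, and the options given in the study's methods include none for strand. The spike-in row was dropped, and 4 count columns that matched no labelled sample were not used. Gene models came from GENCODE M21 (GRCm38), in which all 52981 identifiers matched. Genes averaging 10 counts or more over the libraries were kept, scaled by TMM (factors 0.986 to 1.02) and expressed as log2 CPM with a prior count of 2. Tests used edgeR 4.0.16's quasi-likelihood F test with Benjamini-Hochberg adjustment at 0.05, in R 4.3.3; DESeq2 1.42.0, other scalings, filters, left-out numbers and the number as a block were alternatives. The mixtures shared a fit over 12 inputs. Same-numbered libraries deviated together (r of at least 0.50 in each of 6 pairs within a set), which is where the pairing comes from. The methods were tested on simulated data with 200 genes changed 4-fold, and all 200 were recovered in each of the 4 designs, with 1 to 18 unchanged genes called. The changed genes averaged at least 50 counts, and the unchanged genes had no effect of the number. The recovery thus does not extend to genes near 0 counts or to libraries that deviate together. Depth was 6668692 to 9073881 counts per spike-in input and 3692146 to 10270010 per enrichment library. Genes were named by a rule: Nnt, the 12 largest differences per direction among parting genes with at least 50 counts in the higher set, list genes that part, 2 genes on either side of the threshold, and the 5 largest F per set. Set members, lists and rules were chosen with earlier results of these data known.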

Additional observations from a re-analysis of the deposited data

Results flagged for a closer look

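Among 78 groups of 6 libraries checked for 1 library standing apart, 3 had one. The rule's nominal chance rate is about 1 group in 20, which was not measured on these counts. Brms1 had 1 count in number 2 of the 5% mixture and 0 in the other libraries of its set, a gap of 1.0 of the group's range. Myl12b had 6 counts in number 3 of the 5% mixture and 14 to 19 in the others, a gap of 0.64 of the range on the log2 scale. Chd1 had 62 counts in number 3 of the 0% mixture and 79 to 98 in the others, a gap of 0.63.

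For 4 of the genes named for the largest F, the differences among the numbers themselves differed between the sets in edgeR's set-by-number test. The adjusted p was 0.0121 for Mup7, 5.24e-11 for Ctrb1, 1.05e-14 for Cela2a and 1.05e-14 for Mup3. Ctrb1 and Cela2a were high in number 2 of the 0% and 5% set and at most 1.05 CPM in every other input library. Mup7 and Mup3 were highest in number 2 in both sets. In number 3 Mup3 stood at 1585 and 1614 CPM in the 0% and 5% set and at 2626 and 2541 in the other.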

How the results depend on the processing

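The 113 parting genes became 68 at a mean of at least 50 counts, 337 at 1.5-fold and 46 at 4-fold. After genes overlapped by an absent gene were left out there were 64, and after those overlapped by any other gene 44, both alternatives chosen after seeing the data. Leaving out 1 number of a set gave 113 to 147. The Nnt difference ranged from -7.40 to -6.52, and of 290 alternatives for the named genes, 28 moved by more than the spread between numbers and 0 reversed. The median difference of the parting genes in enrichment libraries was 1.56, and 1.41 to 1.66 with a number left out. With the replicate number as a block, the calls for 5% against 0% went from 0 to 14 and for 10% against 1% from 0 to 1, while the calls for age went from 4510 to 4569 and those among parting genes from 28 to 29. Without a filter, 9 genes passed for 5% against 0%. Leaving out a number left the mixture calls at 0 to 0. The 2147 and 1549 genes that differed among numbers were 816 and 642 by DESeq2's likelihood ratio test, and 1062 to 1630 and 709 to 1015 with 1 number left out, which compares only the other two. The set-by-number calls were 41 to 568 instead of 433, with 41 without number 1 and 159 without number 3. Age calls were 3617 to 4161, and 23 to 28 among parting genes, with a library left out. The causes were not tested. Depth limits genes near 0 counts, where a ratio carries a wide counting interval.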

Other observations

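Apart from hepatocytes, whose sums are given above, only sinusoidal endothelium had summed marker levels that did not overlap between the sets. None of its markers parted the sets. The summed level of 6 sinusoidal endothelium markers was 209.5 to 275 CPM in the 0% and 5% set and 175 to 190 in the 1% and 10% set, with a median difference of 0.41 on the log2 scale. For 7 Kupffer cell markers the sums overlapped, at 343 to 687.5 against 276 to 513. The sums of stellate, cholangiocyte, neutrophil, B and plasma cell, T and NK cell, erythroid and adipocyte markers overlapped too. In bulk RNA, fewer cells of a type and less RNA per cell cannot be told apart. A difference between the sets in how reads were counted was not tested either.

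Further genes that followed the numbers in both sets were chosen after their values were seen. Elovl3, a fatty acid elongase, stood at 400 to 455 CPM in number 2 and 173 to 227 in numbers 1 and 3. Apoa4, an apolipoprotein, had its lowest levels in number 2, at 221 to 249 against 428.5 to 555. Lyz2, a lysozyme of macrophages, was also lowest in number 2, at 71.6 to 80.2 against 147 to 218. Of 11 bile acid genes called in both sets, 7 were highest in number 2 in both, beside 42.3% of the 1004 genes called in both sets.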
